A study of Mus musculus with 192 samples.

Results

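The genes described here are the cytosolic ribosomal protein genes, which encode the proteins of the small (Rps) and large (Rpl) ribosomal subunit. Members were chosen by symbol alone: Rps or Rpl followed by a digit, or Rpsa, Rplp0, Rplp1 or Rplp2, of protein-coding type and with no -ps in the name. Of 20764 genes in the counts, 83 were members, 33 of the small and 50 of the large subunit. Rpl10l and Rpl39l, which also meet the symbol rule in the annotation, were not analysed here. Every member had at least 1 UMI (unique molecular identifier, the count of 1 captured RNA molecule), and 80 had 500 or more. Rps27l, Rpl7l1 and Rpl3l had 340, 282 and 1.

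A ribosome is made of a small subunit, which reads the mRNA, and a large subunit, which joins amino acids, and each holds its proteins in equal numbers with few exceptions. Their mRNAs are among the most abundant of a growing cell and are translated together in response to growth signals through a pyrimidine tract at their 5′ end. In blood, heterozygous loss of single ribosomal protein genes causes Diamond-Blackfan anaemia in people, and blood stem cells are known for low protein synthesis.

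The samples were 192 single bone marrow cells of C57BL/6 mice, described by the labels as LSK cells, a fraction that carries Sca-1 and cKit, lacks mature lineage markers and holds the stem cells and early progenitors of blood. The labels' protocols give an age of 8 to 16 weeks for the mice used, list C57BL/6, a congenic, a Cas9 and a Dach1-GFP line for the study as a whole, name no treatment, and do not say which animal gave which cell. Cells were sorted 1 per well after enrichment for cKit, and the labels give for each cell the signal of CD135 (Flt3, high on lymphoid-primed progenitors), CD150 (high on stem cells), CD127 (the interleukin-7 receptor), Sca-1, cKit, CD16/32, CD11b, and forward and side scatter. There were 2 library pools of 96 cells, and the same 96 cell indices were used in both. With no animal named, all cells count as 1 biological sample: there is no test below, and 95% intervals cover counting error only.

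The 191 cells kept held 3704842 gene UMIs, from 3927 to 49372 per cell with a median of 17715. The 5 LSK marker genes listed (Kit, Ly6a, Cd34, Flt3 and Cd48) were all detected, with Kit in 188 cells and Ly6a, the gene of Sca-1, in 72. Markers of other cells had fewer UMIs than the 4992 of the LSK list, but were not rare by cell: lists for neutrophils, monocytes, B cells, megakaryocytes and NK cells held 14 to 262 UMIs each over all cells, with S100a8 at 0 and Nkg7 in 101 cells, and the erythroid list held 992, 790 of them from Car1 in 73 cells. Any UMI of the list was found in 13 cells for neutrophils, 32 for monocytes, 46 for B cells, 75 for megakaryocytes, 108 for NK cells and 101 for erythroid cells. T cell markers were not analysed here. Their part in the results was not tested.

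The start of the gene is shown for 7 members that the results below turn on, since the pyrimidine tract known for this gene class lies there. Each run holds 30 bases before and 20 bases from the RefSeq start on GRCm38.p6, 5′ to 3′ on the gene's strand. Capitals mark the longest run of a C followed by at least 4 bases that are each C or T, searched on the gene's strand only and starting within 10 bases of the annotated start.
Rps9 (chr7:3704011-3704060, plus): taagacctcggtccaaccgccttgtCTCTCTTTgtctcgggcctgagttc
Rpl14 (chr9:120571487-120571536, plus): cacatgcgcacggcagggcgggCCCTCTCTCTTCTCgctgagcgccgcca
Rpl35 (chr2:39005112-39005161, minus): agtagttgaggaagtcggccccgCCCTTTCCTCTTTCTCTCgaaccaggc
Rpl22 (chr4:152325696-152325745, plus): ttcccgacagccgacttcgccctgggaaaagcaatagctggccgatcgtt
Rpl22l1 (chr3:28805478-28805527, plus): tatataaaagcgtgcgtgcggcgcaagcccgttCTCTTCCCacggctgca
Rps27 (chr3:90213629-90213678, minus): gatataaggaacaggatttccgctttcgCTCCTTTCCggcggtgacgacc
Rps27rt (chr9:114982720-114982769, minus): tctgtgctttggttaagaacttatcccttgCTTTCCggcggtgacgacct
Rpl35 and Rpl14 had tracts of 18 and 14 bases, and the window of Rpl22 shown had none, while a further RefSeq start of that gene had one of 5 bases. Rps27 and Rps27rt shared a run of 19 bases from the transcribed side and differed upstream of it. Of the 63 members matched in the table, 37 (58.7%) had such a tract near a start, against 32.6% of all 27025 genes with a window. At the annotated start base itself, 18.7% of the members' 75 windows and 2.51% of all 32851 windows had one. The 22 translation partner genes listed further on had it about as often, in 53.3% of the 15 genes matched and at the start base of 25% of 16 windows.

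Members together held 373192 UMIs, which was 10.1% of all gene UMIs (Clopper-Pearson interval 10.04 to 10.1%). Small subunit genes held 4.61% and large subunit genes 5.46%. The levels below are counts per 1000000 gene UMIs (CPM), and since each molecule was captured at its poly(A) tail they are not divided by gene length. Among small subunit genes the most abundant was Rps9 at 2614 CPM (Poisson interval 2562 to 2666), followed by Rps24 at 2413, a Diamond-Blackfan anaemia gene, Rps20 at 2367, X-linked Rps4x at 2297, Rps3a1 at 2235, Rps23 at 2171, which sits in the decoding centre, and Rps29 at 1954. Among large subunit genes Rpl23 led at 2988 CPM (2933 to 3044), the highest member of all, and Rpl10 had 1969, a late-joining protein of the subunit. Rplp1 and Rplp2, the acidic proteins of the stalk that recruits elongation factors, had 2534 and 1815 CPM, and Rplp0, which anchors them, had 1618. The 12 most abundant members held 27.5% of the members' UMIs. The median member had 1261 CPM, 71 of 83 members had a UMI in all 191 cells, and 75 in at least 99% of cells.

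Many of these counts stood beside counts of near-identical genes. Pseudogene rows that matched a member's transcript at 95% identity or more over at least 150 bases numbered 447 and held 707255 UMIs, or 19.1% of gene UMIs, 1.90 times the members' own. Members and these copies together made up 29.2%. Of 83 members 74 had at least 1 such copy, and in 54 the copies held more UMIs than the member. Rps23 had 8044 UMIs of its own and 39157 in 10 copies, Rpl29 had 664 and 2572 in 28 copies, while Rpl23 and Rpl32 had only 35 and 53 UMIs in 1 copy each. The 9 members with none included Rps9, Rps20, Rps3, Rps21, Rpl8, Rps27l, Rpl3l and Rpl41, the last with another near-identical gene, Gm10076, of 5529 UMIs.

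For most pairs, copies followed their member cell by cell. Rps3a1 and its pseudogene Rps3a2, 99.5% identical over 792 bases, had 8282 and 8096 UMIs, the same count in 60 of 191 cells and counts within 1 of each other in 132, where the median cell had 41 and 40. The variance of the split between them was 0.0232 of what independent molecules would give (1). Over 248 pairs in which both genes had 500 UMIs or more, that ratio had a median of 0.498 and was under 1 in 233. Rps27 and Rps27rt, 2 members with 341 identical bases, had 2603 and 4344 UMIs and a ratio of 0.292. The sources used here do not say whether a molecule could be counted in more than 1 gene, so the levels and ratios of members with copies are uncertain.

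**Figure D1:**
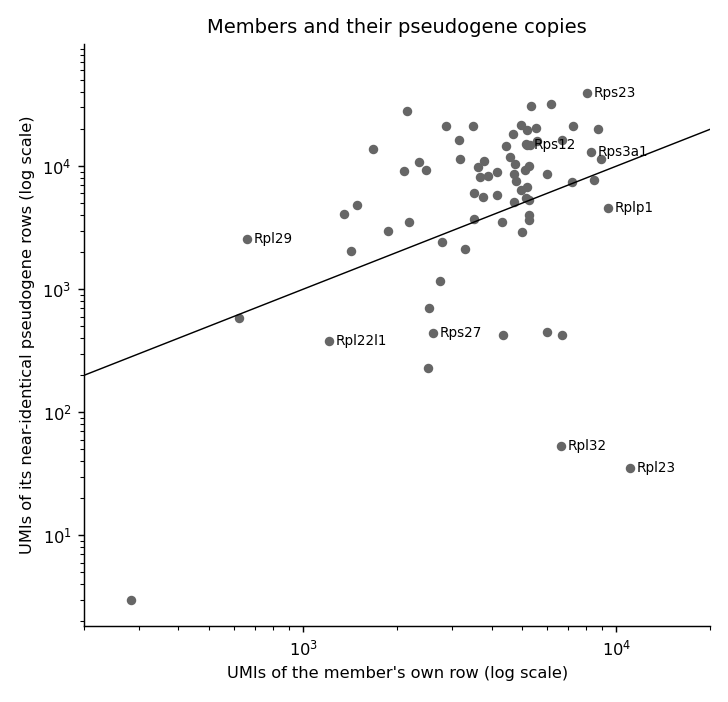
Each point is 1 of the 74 members with a near-identical pseudogene copy, with its own UMIs on the x axis and the UMIs of its copies on the y axis, both on log scales over 191 cells; the line marks equal numbers. The 54 members above the line include Rps23, and Rpl23 and Rpl32 lie far below it.

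The summed share varied between single cells by more than counting gives. It ran from 6.68% to 14.6%, with a median of 10.02%, quartiles of 9.30% and 10.8%, and a standard deviation of 1.29 percentage points, 5.56 times the 0.233 from counting alone. In pool 1 the lowest, median and highest cell had 6.68%, 9.87% and 14.6%, and in pool 2 they had 7.51%, 10.1% and 14.4%, so the pools overlapped widely. The small and large subunit shares moved together over cells, with Pearson's r of 0.92 in pool 1 (96 cells) and 0.89 in pool 2 (95 cells). The share of the pseudogene copies followed the members with r of 0.96 and 0.97. All of these shares have the same denominator within a cell. Large subunit UMIs per small subunit UMI had a median of 1.19, and ranged from 1.00 to 1.48.

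Cells with a high share were neither deeper nor shallower: r with gene UMIs was -0.10 in pool 1 and 0.00 in pool 2. The share was lower in cells with more of Gm42418, with r of -0.38 and -0.37. That gene lies over a ribosomal RNA repeat and took 0.741 to 13.9% of a cell's gene UMIs. Its UMIs are in the denominator of the members' share, so part of this r is fixed by the calculation. The members' share was also lower in cells with more UMIs of the 17 stem cell genes listed (r of -0.38 and -0.31). For lymphoid priming genes r was 0.03 and 0.09. The S-phase list gave 0.14 and -0.08 and the G2/M list -0.06 and -0.09. These are descriptions over cells that share a library. The 3 cells with the highest share, picked after their values were seen, had 14.6%, 14.4% and 13.9% of 9437, 23437 and 8404 gene UMIs. The 3 lowest had 6.68%, 7.504% and 7.51%, with Gm42418 at 12.5%, 12.1% and 9.72%.

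Cells were then ranked within each pool by each signal and split into tertiles (lower, middle and upper) of 32 cells per pool. The ribosomal protein share was nearly flat: the 27 tertiles held between 9.81% and 10.5%. By CD135 the lower, middle and upper tertile had 10.04%, 9.90% and 10.3% of gene UMIs (cells 7.51 to 14.4%, 6.68 to 13.9% and 7.504 to 14.6%), a log2 ratio of upper over lower of 0.04 (0.02 to 0.05), with 0.00497 in pool 1 and 0.0673 in pool 2. By CD150 they had 9.91%, 10.3% and 9.999%, a ratio of 0.01 (0.00 to 0.02), with -0.02 in pool 1 and 0.05 in pool 2. By CD127 they had 10.04%, 10.2% and 9.99%, a ratio of -0.01 (-0.02 to 0.00), with -0.0179 in pool 1 and 0.0072 in pool 2. By CD135 and CD150 only 1 upper cell lay above every lower cell, and by CD127 there were 5, so the tertiles overlapped widely.

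Side scatter and CD16/32 had the ratios farthest from 0. The share was 9.81% in the lower tertile by side scatter, 9.97% in the middle and 10.4% in the upper, a log2 ratio of 0.08 (0.07 to 0.09) with 0.10 in pool 1 and 0.07 in pool 2. By CD16/32, a receptor of myeloid progenitors, it was 10.5%, 9.85% and 9.89%, a ratio of -0.09 (-0.10 to -0.08) with -0.11 and -0.06. By Sca-1 it was 10.4%, 9.91% and 9.90%, a ratio of -0.07 (-0.08 to -0.06) with -0.11 and -0.03. The median cell had 9.79% in the lower and 10.5% in the upper tertile by side scatter, while single cells ran from 6.68 to 14.4% and from 7.51 to 14.6%.

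The other signals were closer to 0. By cKit the tertiles had 10.2%, 10.1% and 9.98%, a log2 ratio of -0.03 (-0.04 to -0.02), with -0.01 in pool 1 and -0.05 in pool 2. By CD11b they had 10.1% each, and the pools went opposite ways, -0.05 and 0.06. By forward scatter, a measure of cell size, they had 10.03%, 9.90% and 10.2%, a ratio of 0.03 (0.02 to 0.04), with 0.01 and 0.05. The Gm42418 share, which moved against the members over cells, was 6.94%, 6.75% and 5.93% in these tertiles and 6.71%, 6.88% and 5.86% in those by side scatter. Its part in the result was not tested.

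Per cell, the picture by forward scatter differed from that of the share. The median cell had 1511 ribosomal protein UMIs in the lower tertile, 1738 in the middle and 2345 in the upper. Per UMI of spike-in RNA, which the primer mix in each well held, members had 2.36, 2.83 and 4.03. Gene UMIs were higher too, with medians of 15330, 18074 and 22427 per cell. Cells of high forward scatter gave more ribosomal protein UMIs at nearly the same share.

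**Figure D2:**
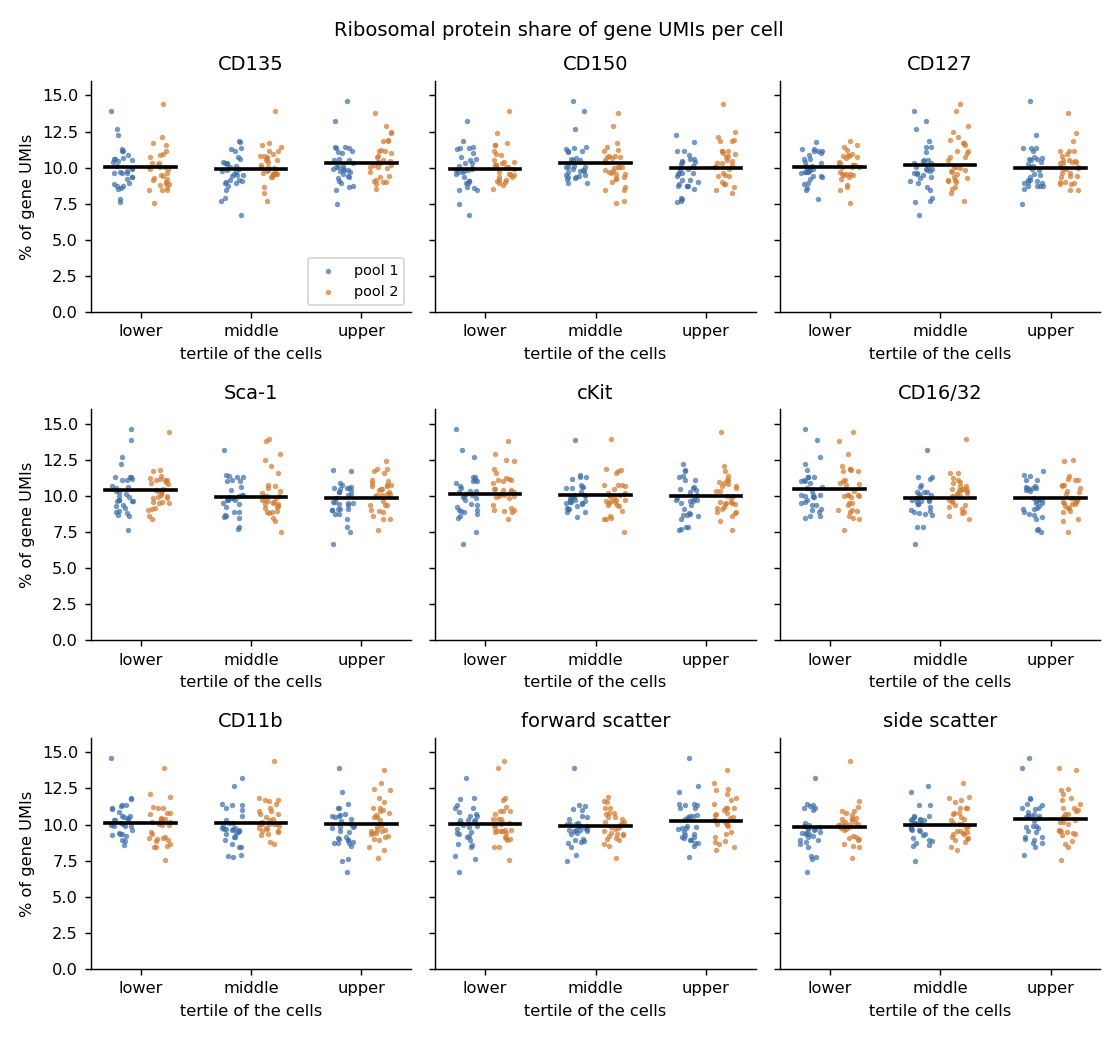
Each point is 1 of 191 cells, with the share of its gene UMIs in the 83 ribosomal protein genes on the y axis and its tertile by 1 of 9 signals on the x axis, coloured by library pool; black lines give the share of the summed tertile. All lines lie between 9.81% and 10.5% while single cells run from 6.68% to 14.6%.

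Single members were compared between the upper and lower tertile of each signal. A member was counted as higher or lower where it differed by at least 1.2-fold in the summed cells, had the same sign in both pools and had 500 UMIs or more in the tertiles compared. That left 78 of 83 members for each signal, with Rpl29, Rpl36al, Rps27l, Rpl7l1 and Rpl3l below. Of the 702 values (78 members by 9 signals), 573 (81.6%) lay within 10% of no difference, 12 were higher and 6 lower, and 66 members were not past the 1.2-fold mark by any signal. All genes with 500 UMIs give the background of each count. That background includes the members and their pseudogene copies: by CD135, 78 members and 226 copies among 768 genes. Of those copies 3 were higher and 1 lower, beside 69 each way of all 768. Medians over all genes include them too, and the copies alone had -0.08 by Sca-1 and -0.10 by CD16/32. The background is thus not independent of the members.

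By CD135, 0 of 78 members were higher where 8.98% of the 768 genes were, and 1 was lower where again 8.98% were. Over the 78 members the median log2 ratio was 0.02, with 46 above and 32 below 0. Over all 768 genes it was 0.01, with 405 above and 363 below 0.

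By CD150, 1 of 78 members was higher where 8.96% of 781 genes were, and 0 were lower where 8.07% were. It was Rpl14, a large subunit protein, with 677 CPM in the lower and 815 in the upper tertile and a log2 ratio of 0.27 (0.13 to 0.40), with 0.15 in pool 1 and 0.39 in pool 2. By CD127, 0 members were higher where 8.7% of 782 genes were, and 0 were lower where 8.44% were. Members' medians were 0.01 and 0.00, beside 0.00 and -0.02 over all genes.

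By Sca-1, 0 members were higher where 9.32% of 762 genes were, and 5 were lower where 12.6% were. Rps26, which lies along the mRNA exit path, had 1519 CPM in the lower and 1212 in the upper tertile, a log2 ratio of -0.33 (-0.42 to -0.23). Its cells had 706, 1474 and 2834 CPM in the lower tertile and 312, 1197 and 2339 in the upper, and only 14 of 64 upper cells were above the lower median. Rpl38, which in mice is needed for the translation of Hox mRNAs, had 749 and 608 CPM, a ratio of -0.30 (-0.44 to -0.16), with -0.21 and -0.33 in the pools. Rpl28 and Rps25, the latter needed for initiation at some viral internal sites, had ratios of -0.30 (pools -0.30 and -0.29) and -0.29 (-0.40 and -0.19). Of 78 members 60 were below 0, with a median of -0.07. Of all 762 genes 471 were below 0, with a median of -0.06.

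By cKit, 2 members were higher where 9.91% of 787 genes were, and 0 were lower where 6.73% were, and Rpl22l1 was among the former. By CD16/32, 0 were higher where 7.28% of 797 genes were, and 0 were lower where 4.52% were. Of 78 members 65 were below 0, 50 of them in both pools. Of the 797 genes 453 were below 0, and 318 were below 0 in both pools. The members' median was -0.08 beside -0.03 over all genes, and 58 of 78 members lay within 10% of no difference. By CD11b, 2 members were higher where 8.96% of 781 genes were, and 0 were lower where 7.04% were. They were Rpl14 at 700 and 847 CPM, a log2 ratio of 0.28 (0.14 to 0.41), with 0.37 and 0.16 in the pools, and Rpl37a at 353 and 425, with 0.40 and 0.15.

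By forward scatter, 3 members were higher where 18.3% of 793 genes were, and 0 were lower where 11.7% were. Rps2, a small subunit protein near the mRNA entry, had 818 CPM in the lower and 1070 in the upper tertile. Its cells had 212, 718 and 1662 CPM in the lower and 346, 1056 and 2307 in the upper tertile, and 46 of 64 upper cells were above the lower median. The log2 ratio was 0.39 (0.26 to 0.51), with 0.48 in pool 1 and 0.15 in pool 2. Rpl8 and Rpl37a both had a ratio of 0.27, with 0.25 and 0.28 in the pools for Rpl8 and 0.13 and 0.42 for Rpl37a. Forward scatter had the highest share of all genes past the mark in the higher direction of the 9 signals, and 3 of 78 members. S-phase genes had 1366 CPM in the lower and 3746 in the upper tertile, and G2/M genes 696 and 1775; their part in these values was not tested.

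By side scatter, 4 members were higher where 12.6% of 775 genes were, and 0 were lower where 9.81% were. Rpl14 had the largest difference of any member and signal past the 500-UMI minimum: 623 CPM in the lower, 730 in the middle and 876 in the upper tertile. Its cells had 112, 565 and 1407 CPM in the lower tertile and 235, 823 and 2226 in the upper, and 54 of 63 upper cells were above the lower median. The log2 ratio was 0.49 (0.36 to 0.63), with 0.56 in pool 1 and 0.42 in pool 2. Rpl22l1 had 0.38 (pools 0.54 and 0.22), Rpl6 0.28 (0.23 and 0.33) and Rps12 0.27 (0.25 and 0.32). Of 78 members 65 were above 0, with a median of 0.09. Of all 775 genes 472 were above 0, with a median of 0.04. At 1.2-fold the share of members past the mark was below the background for all 9 signals and both directions. At 1.1-fold it was above it for 2 of them, with 19 of 78 lower by CD16/32 beside 21.1% of all genes and 21 of 78 higher by side scatter beside 25.9%. Members have more UMIs than most other genes, and counting error carries genes with fewer UMIs past a fold mark more easily. The sets are not matched for this, so a lower share of members does not show that members are steadier.

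**Figure D3:**
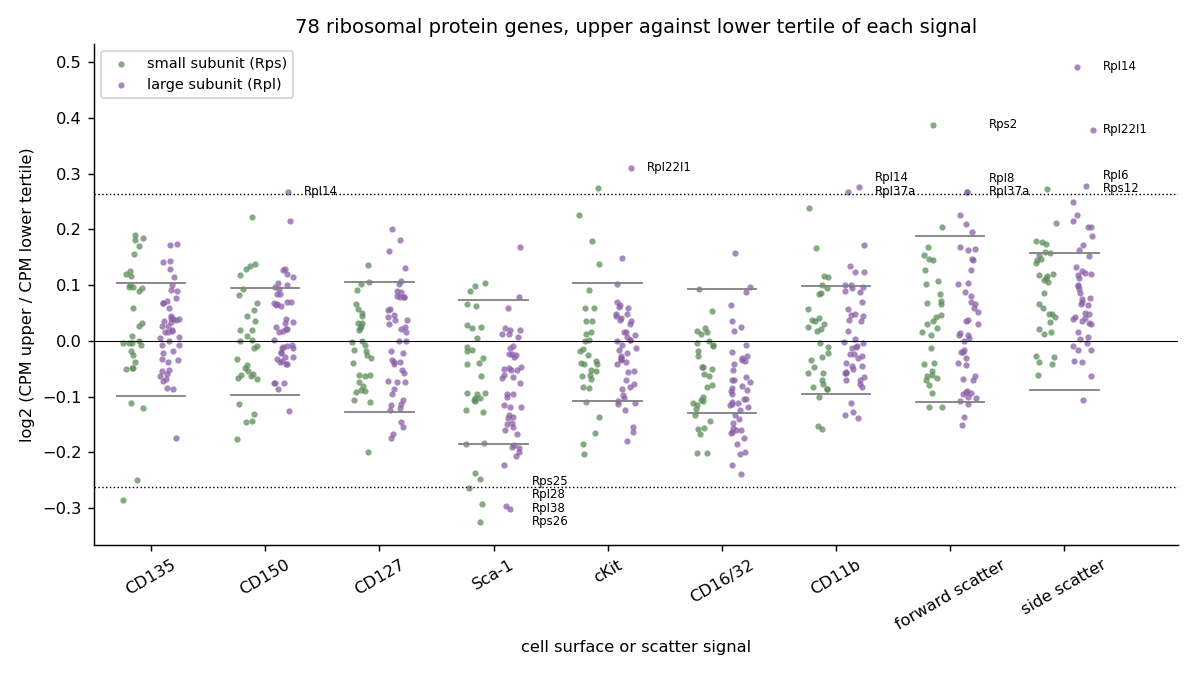
Each point is 1 of 78 ribosomal protein genes (green small, purple large subunit), with its log2 ratio of CPM in the upper over the lower tertile on the y axis for each of 9 signals on the x axis; dotted lines mark 1.2-fold, grey bars the quartiles of all genes with 500 UMIs, and names most of the members past 1.2-fold with the same sign in both pools. Most points lie inside the dotted lines, and Rpl14 by side scatter is the highest at 0.49.

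The paralog-like members with at least 50 UMIs were Rpl22l1, Rpl36al, Rps27l, Rpl7l1 and Rps27rt. Rpl22 binds RNA in the large subunit and is needed in mice for the development of most T cells, and its paralog Rpl22l1 is held low by it. Rpl22 had 678 CPM and Rpl22l1 326, 1 UMI for 2.08 of its parent, with a UMI in 185 of 191 cells. By side scatter Rpl22l1 had 276 CPM in the lower and 358 in the upper tertile, a log2 ratio of 0.38 (0.17 to 0.59), while Rpl22 had 689 and 684, a ratio of -0.01 (-0.15 to 0.13). By cKit the ratios were 0.31 (0.10 to 0.52; pools 0.41 and 0.21) and 0.06 (-0.08 to 0.20). By CD135 they were -0.17 (-0.38 to 0.03) and 0.09 (-0.05 to 0.23), each interval including 0.

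Rps27l, whose human counterpart is a target of p53, had 92 CPM, 7.66 times less than Rps27 at 703, and a UMI in 135 of 191 cells. It had 156 UMIs in the lower and 86 in the upper tertile by Sca-1, or 119 and 75 CPM, a log2 ratio of -0.68 (-1.07 to -0.29), with -0.79 and -0.57 in the pools. Rps27 had 697 and 708 CPM there, a ratio of 0.02 (-0.12 to 0.16). Rpl36al had 169 CPM beside 889 for Rpl36a, and by Sca-1 208 and 129 CPM, a ratio of -0.69 (-0.98 to -0.39), with -0.82 and -0.56 in the pools. Rpl36a had 919 and 901, a ratio of -0.03 (-0.15 to 0.09). Both ratios were farther from 0 than that of any of the 78 members by any signal, but rest on under 500 UMIs each, and the difference between paralog and parent was not tested. Rpl36al was also lower by cKit, at 202 and 154 CPM, a ratio of -0.39 (-0.67 to -0.12).

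Rpl7l1 had 76 CPM beside 1273 for Rpl7, and its ratio by CD16/32 was 0.47 (0.04 to 0.92). The Rps27 retrocopy Rps27rt had 1173 CPM, more than Rps27. By CD150 the pair had ratios of -0.15 and -0.18, and by cKit -0.14 and -0.20. Their ratios by the other signals are not compared here. Since they share transcript sequence, how their UMIs divide is uncertain. Rpl3l, the muscle form of Rpl3, had 1 UMI in 1 cell, and Rpl3 had 5183.

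The summed share differed little between pools, but single members differed more. Of 80 members with 500 UMIs, 37 (46.3%) differed by at least 1.2-fold between pools. Of 766 other protein-coding genes 29.2% did, and of 333 pseudogene rows 63.4%. By at least 1.5-fold, 10 of the 80 members differed, beside 36 of the 766 genes and 125 of the 333 pseudogene rows. Rps12 had 2101 CPM in pool 1 and 626 in pool 2, a log2 ratio of -1.75 (-1.84 to -1.65). Its cells had 672, 2078 and 3432 CPM (lowest, median, highest) in pool 1 and 82, 577 and 1581 in pool 2, and 62 of 95 cells of pool 2 were below every cell of pool 1. Rps23 had 2652 and 1645 CPM, Rps2 1155 and 729, and Rpl7a 1019 and 659.

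Other members were higher in pool 2. Rpl35 had 434 and 947 CPM, a log2 ratio of 1.13 (1.005 to 1.25), and 24 cells of pool 2 were above every cell of pool 1. Rpl32 had 1320 and 2315 CPM, and 46 cells of pool 2 were above all of pool 1. Rpl37, Rpl38 and Rpl29 had ratios of 0.92, 0.87 and 0.79. Large subunit UMIs per small subunit UMI had a median of 1.14 in pool 1 and 1.23 in pool 2.

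Summing each member with its copies brought some ratios nearer 0 and not others. Rps12 went to -0.62 with its 17 copies, and Rps2 turned from -0.66 to 0.26 with 21. Rpl32, with almost no copy UMIs, stayed at 0.80, and Rpl7a went from -0.63 to -0.72. Over members the median absolute ratio was 0.24 either way. Pool, with all that differed in library making, and the cells it holds cannot be told apart. The largest pool difference of a member, 3.36-fold, exceeded the largest difference by any signal among the 78 members with 500 UMIs in the tertiles, 1.41-fold.

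**Figure D4:**
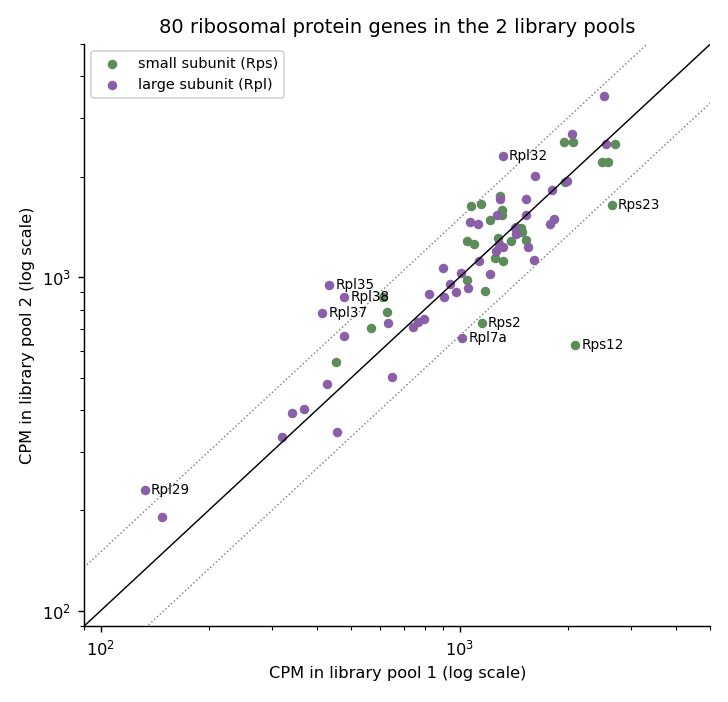
Each point is 1 of 80 ribosomal protein genes (green small, purple large subunit), with its CPM over the cells of library pool 1 on the x axis and of pool 2 on the y axis, both on log scales; the solid line marks equal levels, dotted lines 1.5-fold, and names most of the 10 members past it. Rps12 lies far below the line and Rpl35, Rpl37, Rpl38 and Rpl32 above it.

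Within pools, members varied between cells by more than counting gives, about as much as other protein-coding genes at the median. The variance of a gene's count over cells, divided by that which Poisson counting at each cell's depth would give, had a median of 1.82 over the 80 members and a range of 1.12 to 3.39, with 30 over 2. Other protein-coding genes had a median of 1.76 and reached 110. The 5 highest members were Rplp1 at 3.39, Rpl41, the smallest ribosomal protein, at 3.31, Rpl23 at 3.002, Rps12 at 2.96 and Rps4x at 2.82. This ratio grows with the mean count of a gene, and members have more UMIs than most other genes, so the sets are not matched. No cell held more than 2.15% of the UMIs of any of these 5.

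**Figure D5:**
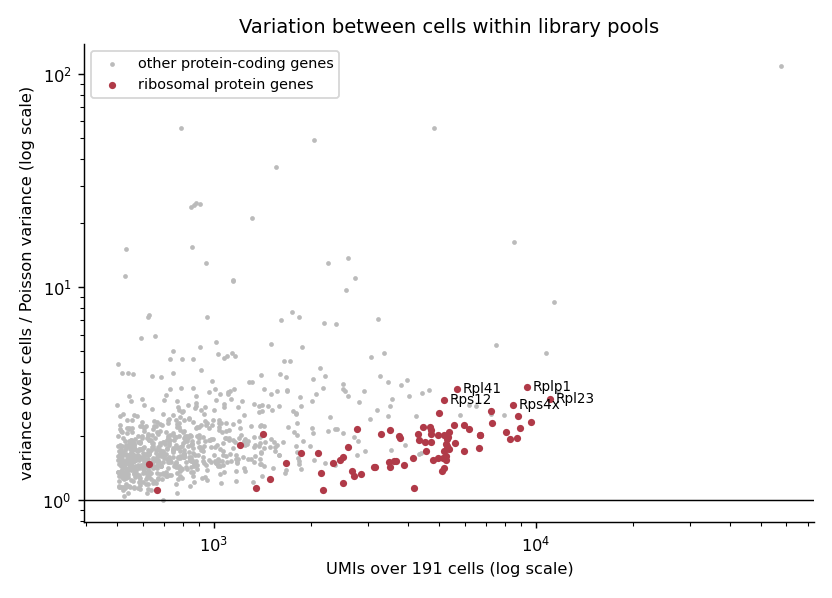
Each point is 1 protein-coding gene with 500 UMIs or more (red for ribosomal protein genes), with its UMIs over 191 cells on the x axis and its variance over cells within pools relative to Poisson counting on the y axis, both on log scales; the line marks 1. The 80 ribosomal protein genes lie between 1.12 and 3.39, and the 5 highest are named.

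Genes whose products work with the ribosome were compared from a list of 22, which includes elongation and initiation factors and ribosome-linked proteins. They held 1.53% of gene UMIs, and 17 had 500 UMIs in the tertiles of each signal. The most abundant were Tpt1 (3158 CPM), Pabpc1, the poly(A)-binding protein (1958), Eef1a1, the elongation factor that brings tRNA (1674), and Npm1, which helps assemble ribosomes (1196). Over cells their summed share followed the members' with r of 0.63 in pool 1 and 0.55 in pool 2. Both shares have the same denominator within a cell, and its part in this r was not tested. By forward scatter 3 of the 17 were higher, where 18.3% of all genes were, and 1 lower, where 11.7% were; Npm1 had 1071 CPM in the lower and 1293 in the upper tertile. By Sca-1, 1 was higher, beside 9.32% of all genes, and 2 lower, beside 12.6%, with Npm1 at 1351 and 1080. By CD127 2 were lower (Eif3f and Eif3e, of an initiation factor complex) beside 8.44%. By cKit and by CD16/32 1 was higher, Nap1l1 each time, beside 9.91% and 7.28%; these 3 genes were named after their values were seen. By CD135, CD150, CD11b and side scatter 0 were higher and 0 lower.

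The 80 genes of the mitochondrial ribosome, which makes the proteins encoded in mitochondrial DNA, were scarce and none had 500 UMIs in the tertiles. They held 0.266% of gene UMIs, and for several signals their sums differed more between tertiles than those of the cytosolic ribosome. By CD11b they had 2431 CPM in the lower and 2904 in the upper tertile, a log2 ratio of 0.26 (0.19 to 0.33), where cytosolic members had 0.00 (-0.01 to 0.01). By side scatter the ratio was 0.22 (0.15 to 0.29) beside 0.08, and by Sca-1 -0.21 (-0.28 to -0.14) beside -0.07. By CD135 it was -0.15 (-0.22 to -0.08) beside 0.04, opposite in sign. By CD16/32 it was -0.01 (-0.08 to 0.06) beside -0.09, the cytosolic ratio farthest from 0.

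Gates drawn by rank on 2 signals gave a similar picture for the summed cells, but not in each pool. Cells with CD150 among the 24 highest of their pool and CD135 below its median (33 cells, the stem cell side) had 9.84% of gene UMIs in members (cells 7.61 to 14.4%), with 9.47% in pool 1 and 10.3% in pool 2. CD135-low cells outside that CD150 range (62) had 9.98%, with 10.1% in pool 1 and 9.84% in pool 2. Between these gates the pools went opposite ways, which the sums do not show. The lymphoid-primed side, high in CD135 by the same rank but outside the CD150 range (40 cells), had 10.1% (cells 7.504 to 14.6%). It had 10.02% in pool 1 and 10.2% in pool 2. The 14 cells with a CD127 signal above 2000 had 9.91%, beside 10.1% in the other 177. In each case the cells overlapped widely.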

How the data were processed

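Each table as deposited by the authors holds whole-number UMI counts, not normalized, with genes as rows and cells as columns. Per the labels' protocols the libraries followed an adapted CEL-seq2 method with poly(dT) primers and a UMI of 6 bases. How reads were aligned and counted, with which strand setting, and how reads matching several genes were treated is not given in the sources used here. The submitters' processing notes name GRCh38, a human build, although the identifiers are mouse. Symbols (20530 of 20764 genes) and gene types come from GENCODE M21 on GRCm38, and start windows from RefSeq on GRCm38.p6.

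Cells under 20% of their pool's median gene UMIs were left out, which removed 1 with 708 UMIs. Doublets were not called, since cells were sorted singly. Tertiles were ranked within pool before that filter, with ties, which met a boundary for forward scatter only, broken by title. UMIs were summed over a group and divided by its gene UMIs, spike-ins left out. Shares have Clopper-Pearson, CPM Poisson and ratios exact conditional binomial 95% intervals. Copies were found with blastn 2.17.0. The calculations used Python 3.11.15 and scipy 1.17.1 and were tested on simulated data.

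The members, lists and comparisons were chosen with earlier results of these data known. Named were the 12 members with most UMIs, up to 4 per signal and direction farthest from 0 among those past 1.2-fold, paralog-like members with 50 UMIs or more and their parents, the 5 most variable members, and up to 4 partner genes by UMIs. Members named for their pool difference, their copies or their start window, and Rplp0 and Rpl3l, were chosen after their values were seen. A few members that the rule would name are not reported here by name. Alternatives changed the cells, the denominator, the split, the thresholds and a correction for UMI collisions.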

Additional observations from a re-analysis of the deposited data

Results flagged for a closer look

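By CD150 and by CD11b the 2 library pools went opposite ways in the ribosomal protein share, upper over lower tertile. By CD150 the log2 ratio was -0.0196 (-0.0358 to -0.00346) in pool 1 and 0.0485 (0.0323 to 0.0647) in pool 2. By CD11b it was -0.0531 (-0.0686 to -0.0376) in pool 1 and 0.0583 (0.0418 to 0.0748) in pool 2. The difference between pools was not tested.

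Pseudogenes near-identical to members, which are outside the members' own counts, held 19.09% of gene UMIs.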

How the results depend on the processing

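The log2 ratio of the summed share, upper over lower tertile, stayed between -0.112 and 0.112 for all 9 signals under every setting run. Values that left the counting interval, or turned while that interval left out 0, follow, and the cause was not tested. With pool 2 alone it was 0.0673 by CD135, 0.0485 by CD150, 0.0072 by CD127, -0.0266 by Sca-1, -0.0456 by cKit, -0.0561 by CD16/32, 0.0583 by CD11b, 0.0466 by forward scatter and 0.0673 by side scatter. With pool 1 alone it was 0.00497 by CD135, -0.0196 by CD150, -0.106 by Sca-1, -0.0139 by cKit, -0.112 by CD16/32, -0.0531 by CD11b, 0.0149 by forward scatter and 0.0978 by side scatter. As the unweighted mean over cells it was 0.0585 by CD135, -0.000879 by CD150, 0.00602 by CD127, -0.0551 by cKit, -0.0219 by CD11b and 0.048 by forward scatter. With Gm42418, Camk1d and Gm26384 out of the denominator it was -0.000641 by CD150 and 0.0621 by side scatter. With cells split at the median it was -0.013 by CD150, -0.0847 by Sca-1, 0.0186 by cKit, -0.0545 by CD16/32, 0.0448 by forward scatter and 0.0564 by side scatter. With members and copies summed it was -0.0301 by CD127 and 0.00786 by forward scatter. With protein-coding genes alone as denominator it was -0.0911 by Sca-1, -0.0453 by cKit, -0.111 by CD16/32 and 0.0989 by side scatter. Protein-coding denominators, sums with copies and the mean of the pools' ratios were chosen after seeing the data. Near 0, the ratio by CD127 also turned with cells split at the median (0.00104), and that by CD11b as the mean of the pools' ratios (0.00258). Correcting collisions, keeping all 192 cells and taking the mean of the pools' ratios moved none of the 9 signals' ratios beyond that interval. Per spike-in UMI the members' median ratio turned from -0.0832 to 0.0631 by CD16/32, and it was -0.0514 by CD135, 0.310 by CD150, 0.297 by CD127, -0.358 by Sca-1, 0.256 by cKit, 0.304 by CD11b, 0.774 by forward scatter and 0.420 by side scatter, so its sign also turned by CD135, CD127, cKit and CD11b. Counts of members past the mark depended on it: at 1.1-fold 17 of 18 counts changed by over 1.5 times, with 20 lower by Sca-1 (30.7% of all genes), 19 lower by CD16/32 (21.1%), 16 higher by forward scatter (28.5%) and 21 higher by side scatter (25.9%), of 78 members each, and at 1.5-fold every count was 0. With a minimum of 200 UMIs, 2 of 18 counts changed by over 1.5 times. They went to 2 of 81 members higher by CD150 (13.1% of all genes) and 1 of 81 lower by cKit (10.4%). Another 5 counts changed by less. Lower by Sca-1 were 7 of 81 (15.9%). Higher were 3 of 81 by cKit (15.3%), 3 of 82 by CD11b (13.0%), 4 of 81 by forward scatter (20.6%) and 5 of 81 by side scatter (14.9%). Thinned to 12147 UMIs a cell (172 cells), 93.02% of cells had a UMI of Rpl22l1, 84.3% of Rpl36al, 62.8% of Rps27l and 56.4% of Rpl7l1. Depth limits the members under 500 UMIs most.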
